A study of Mus musculus with 7 samples.

Results

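The genes that encode Wnt ligands, their receptors and their inhibitors were examined in ChIP-seq profiles of Tip60, Hdac6 and p400 in mouse embryonic stem cells (ESCs). A row of the files is a transcription start site (TSS), and rows were taken where the gene symbol began with Wnt, Fzd, Dkk or Sfrp followed by a digit, or was Lrp5, Lrp6, Axin1, Axin2, Frzb or Wif1. This gave 41 genes with 53 of the 36733 rows, of 17689 gene symbols in all. They comprise 19 Wnt ligands, 10 receptors (8 Frizzled genes, Lrp5 and Lrp6), 10 secreted inhibitors (4 Dkk genes, 4 Sfrp genes, Frzb and Wif1) and the Axin scaffolds Axin1 and Axin2. The rule used only the symbol and no ChIP value.

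Wnt proteins are secreted ligands that bind a Frizzled receptor together with the co-receptor Lrp5 or Lrp6. Binding recruits Axin, the scaffold of the complex that marks β-catenin for destruction, so that β-catenin accumulates and acts with TCF/LEF factors in the nucleus. Dkk proteins such as Dkk1 can block the co-receptors, while Sfrp proteins, Frzb and Wif1 bind the ligands themselves. Axin2 is a well known target gene that feeds back on the pathway. In ESCs, Wnt signaling is known to favor self-renewal, and it takes part in mesoderm formation as the cells differentiate.

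Tip60 is the acetyltransferase and p400 the ATPase of the Tip60-p400 chromatin remodeling complex, and Hdac6 is a histone deacetylase family member best known from the cytoplasm. The study asked whether Hdac6 occupies the same promoters as this complex and whether Tip60 and p400 binding depend on Hdac6. Each of 7 conditions has 1 library and no replicate, so no value below carries an error between cultures. Tip60-H3F ESCs, in which the endogenous Tip60 carries a tag of histidine and Flag epitopes, were profiled with the Flag-M2 antibody upon GFP KD, the control knockdown, and upon Hdac6 KD. Hdac6-H3F ESCs, tagged in the same way, were profiled with Flag-M2 upon GFP KD and in a library titled Tip60 KD. The genotype field of that last library reads Hdac6KD, so the condition rests on the title alone, and it is called the library titled Tip60 KD throughout. Flag-M2 ChIP of wild-type E14 ESCs, which have no tag, measured the background, and endogenous p400 was profiled with its own antibody upon GFP KD and Hdac6 KD. All lines derive from E14. The knockdowns used lentiviral shRNAs, and those cells were taken 72 hr after infection. ChIP coverage gives neither RNA nor protein, so the knockdowns and the identity of the cells were not checked here.

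Depth was limited. The libraries were normalized to between 9226740 and 31375500 reads, and the median row held between 8 and 21 reads within 500 bp of the TSS. Reads were rebuilt from the deposited coverage, whose values are whole multiples of the value of 1 read. A single read covers 148.4 or 148.6 bp in both Hdac6 libraries, and close to 298.9 bp in every other library. Intervals below are exact 95% binomial (Clopper-Pearson) intervals that cover counting error only, and adjusted p-values come from an exact conditional binomial test of the reads in 2 libraries, with Benjamini-Hochberg adjustment over all rows tested. These p-values compare libraries, not conditions. A row was tested with at least 10 reads in both libraries together, and a fold of at least 1.5 in reads per 1000000 normalizing reads (rpm) is the size by which rows are counted. Where a gene has several rows, its first row with a RefSeq identifier in file order is used unless stated.

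The Wnt gene promoters are rich in GC and in CpG dinucleotides. Their median GC content within 500 bp of the TSS was 62.4%, against 52.95% over all rows, and the median number of CpG sites was 64 against 25. The range was wide, from 37.3% at the first row of Fzd3 to 78.3% at Wnt4. Of the 53 rows, 39 lie within 100 bp of an annotated mm9 transcript start, 50 start in an exon, 2 in an intron and 1 outside the annotated transcripts. The first rows of Fzd3 and Lrp6 are poor in GC, whereas another row of each gene is among the richest in CpG sites. The 200 bases upstream of both starts of these genes, and of Axin2, are shown because Hdac6 and p400 reads at these genes are described below. A link between these stretches and the reads was not tested. They are read from mm9 in the direction of the gene, ending at the TSS or, where an annotated exon of the gene begins earlier, just upstream of that exon. CpG sites are in capitals.
Fzd3, GC-rich start (chr14:65881301-65881500, minus strand): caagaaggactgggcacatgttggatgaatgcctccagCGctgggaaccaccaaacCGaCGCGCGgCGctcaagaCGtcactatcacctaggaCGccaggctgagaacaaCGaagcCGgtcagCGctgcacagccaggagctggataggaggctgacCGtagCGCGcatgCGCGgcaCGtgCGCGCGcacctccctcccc
Fzd3, GC-poor start (chr14:65872301-65872500, minus strand): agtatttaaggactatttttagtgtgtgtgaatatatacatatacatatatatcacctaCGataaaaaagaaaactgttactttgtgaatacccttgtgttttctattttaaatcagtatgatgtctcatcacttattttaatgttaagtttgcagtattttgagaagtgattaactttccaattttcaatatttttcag
Lrp6, GC-rich start (chr6:134516984-134517183, minus strand): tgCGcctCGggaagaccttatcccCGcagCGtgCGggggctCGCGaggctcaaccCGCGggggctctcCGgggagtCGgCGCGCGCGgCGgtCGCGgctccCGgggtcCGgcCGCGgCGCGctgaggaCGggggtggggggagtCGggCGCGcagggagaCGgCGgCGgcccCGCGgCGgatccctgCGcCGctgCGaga
Lrp6, GC-poor start (chr6:134421312-134421511, minus strand): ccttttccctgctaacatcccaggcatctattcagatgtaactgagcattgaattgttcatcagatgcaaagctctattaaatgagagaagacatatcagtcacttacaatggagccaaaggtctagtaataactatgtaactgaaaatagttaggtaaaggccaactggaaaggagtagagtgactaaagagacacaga
Axin2 (chr11:108781463-108781662, plus strand): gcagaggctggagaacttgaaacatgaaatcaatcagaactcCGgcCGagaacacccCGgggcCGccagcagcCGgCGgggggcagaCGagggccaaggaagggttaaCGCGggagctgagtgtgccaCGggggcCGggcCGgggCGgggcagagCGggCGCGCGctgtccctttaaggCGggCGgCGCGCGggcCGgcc
The GC-poor row of Fzd3 lies 8928 bp inside the annotated transcript, so the annotation used here has no start there, and start means the position that the files give. The Fzd3 stretches hold 20 CpG sites at the GC-rich start and 1 at the GC-poor start, and those of Lrp6 hold 37 and 0. The Axin2 stretch holds 23.

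The Wnt genes were not among the rows with most Tip60 or p400 signal. With the control knockdown, they held a median of 11 reads in the Tip60 ChIP (range 3 to 31), 16 in the Hdac6 ChIP (4 to 27) and 23 in the p400 ChIP (8 to 36), against 12 in the untagged ChIP (3 to 24). The median Wnt gene stood at percentile 43.7 of all rows for Tip60, 76.1 for Hdac6, 57.3 for p400 and 52.5 for the untagged control. The p400 percentile is among the 22704 rows with a RefSeq identifier and the others among all 36733, so they have unlike reference sets. In the highest 10% of rows were 4 genes for Tip60 (Wnt5b, Wnt10a, Sfrp2 and Sfrp4), 4 for Hdac6 (Wnt1, Wnt6, Fzd10 and Frzb) and 0 for p400. With ties, this class holds 10.8% of all rows for Tip60, 10.2% for Hdac6 and 10.7% for p400. The Wnt genes stood near that share for Tip60 and Hdac6, with 9.76% each. No gene was there in more than 1 of the 3 ChIPs, and 33 of 41 were there in none. The overlap over all rows is not given here, so no trait of the Wnt genes is read from this. The untagged ChIP had 3 in its own highest 10% (Wnt16, Fzd7 and Lrp6), so counts of this size also arose without a tag. The plot of reads by gene and library shows all of these values.

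**Figure D1:**
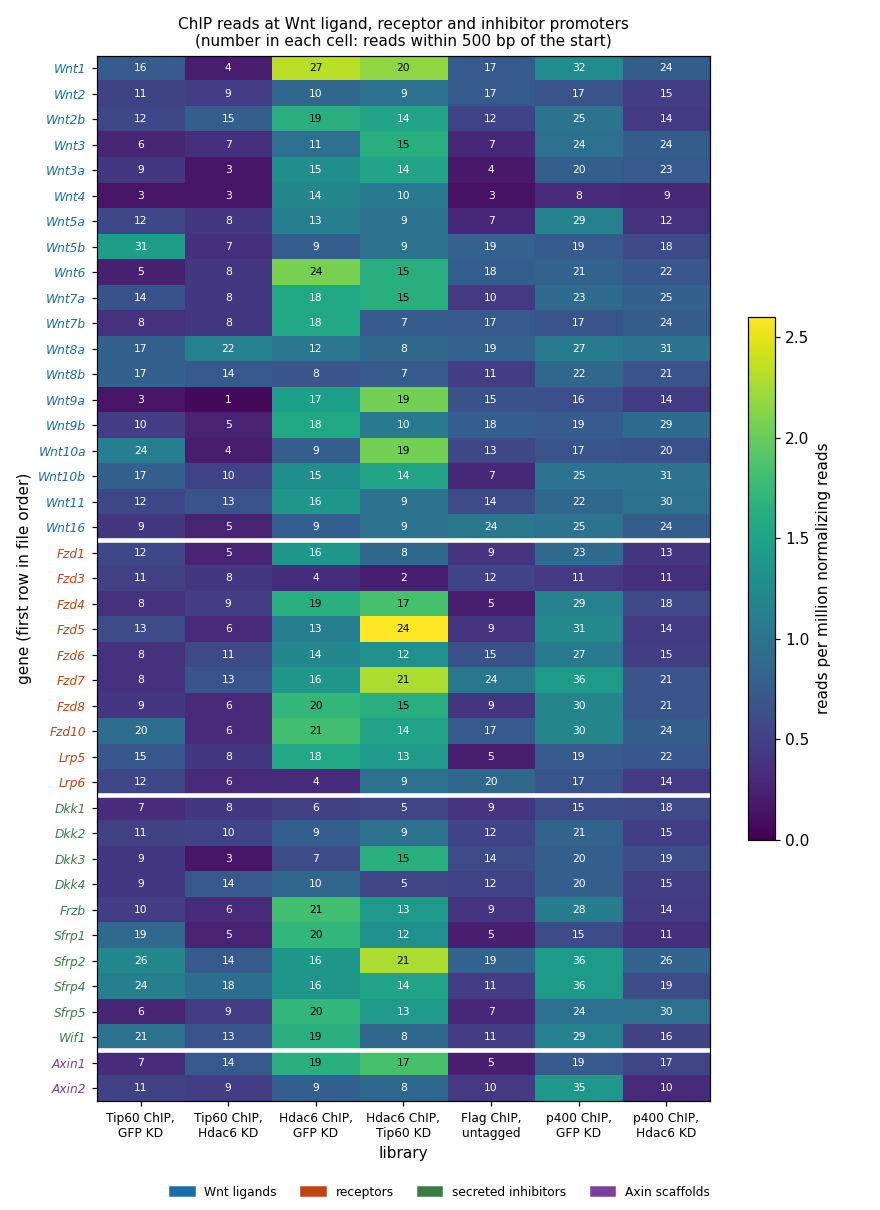
Reads within 500 bp of the TSS of the 41 genes (rows, by role) in the 7 libraries (columns); color gives rpm and the number in each cell the reads themselves. The Hdac6 columns are the brightest, with medians of 16 and 13 reads, and the p400 column upon Hdac6 KD is darker than that upon GFP KD for most Frizzled genes.

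Hdac6 ChIP signal was above the untagged background at most Wnt genes. In rpm, 29 of 41 genes were at least 1.5-fold higher in the Hdac6 ChIP upon GFP KD than in the untagged ChIP, and 2 were lower, namely the first rows of Fzd3 and Lrp6. Over all rows tested, 58.6% were higher and 11% lower by this fold. By the exact binomial test 19 of 41 were higher and 0 lower (24 and 0 at an unadjusted p under 0.05), against 22.8% and 0.352% of all rows. The median difference was 146.8% for the Wnt genes and 76.3% for all rows, and the summed reads were 138.9% higher (interval 111.8 to 169.5) against 83.5% for all rows.

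This difference moved with GC content. In the Wnt genes lowest in GC, 14 genes from 37.3% to 58.7%, summed Hdac6 signal was 49.8% above the untagged control (interval 20.2 to 86.5). It was 167.6% above it (118.1 to 228.7) in the middle 14 genes and 231.0% (166.6 to 312.3) in the 13 genes highest in GC. Across the 41 genes, GC content and Hdac6 rpm had a Pearson's r of 0.64 (Spearman's rho 0.59), and GC content and untagged rpm an r of −0.29 (rho −0.32). These are descriptions over genes that share a library, not tests. Over all rows, flank windows 1500 to 2000 bp from the TSS showed a trend in the same direction, with a ratio of Hdac6 to untagged signal of 0.24 under 30% GC and 3.01 between 62.5% and 65%. Dividing each ratio by that of flank windows of like GC content left the summed Hdac6 signal differing by −3.34% from the untagged control (interval −12.5 to 6.65). With that correction 10 of 41 genes were higher and 11 lower, beside 20.8% and 24.0% of all rows. Flank windows of high GC content are few, and 15 of the genes lie above the highest bin with 100 windows and took its factor. The cause of the trend was not tested. The p400 difference upon Hdac6 KD was −32.9%, −31.7% and −35.5% in the same groups of genes from lowest to highest GC content. Flank windows did vary with GC content for p400. Their ratio of Hdac6 KD to GFP KD was 0.67 under 30% GC, 1.11 from 55% to 57.5% and 0.76 between 62.5% and 65%.

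Genes with several starts allowed the comparison within a gene. Of 11 such genes, 9 have starts whose windows do not overlap. The Fzd3 start rich in GC held 21 reads in the Hdac6 ChIP upon GFP KD and 18 in the library titled Tip60 KD, and the GC-poor start 4 and 2. The corresponding Lrp6 reads were 22 and 13 at the GC-rich start, and 4 and 9 at the GC-poor start. Both genes thus had more Hdac6 reads at the CpG-rich start, and the untagged ChIP went the other way, with 7 against 12 reads for Fzd3 and 13 against 20 for Lrp6. Over the 9 genes, the start richer in GC held more Hdac6 reads in 7, fewer in 1 and as many in 1, with a ratio of summed reads of 2.15 (interval 1.62 to 2.87). In the library titled Tip60 KD it held more in 9 of 9, and in the untagged ChIP it held fewer in 9 of 9 (ratio 0.56, interval 0.41 to 0.75). For 3 of these genes the starts differ by less than 1 point of GC content. In the 6 genes whose starts differ by 10 points or more (Wnt5b, Wnt7b, Fzd3, Lrp6, Wif1 and Axin1), the ratio was 2.73 for Hdac6 upon GFP KD (interval 1.92 to 3.95) and 0.57 for the untagged control (0.39 to 0.82). The p400 ratio over those 6 genes was 1.65 (1.25 to 2.19) upon GFP KD and 0.89 (0.66 to 1.20) upon Hdac6 KD. The Tip60 ratio was 0.83 (0.59 to 1.17) upon GFP KD, an interval that includes equal reads.

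**Figure D2:**
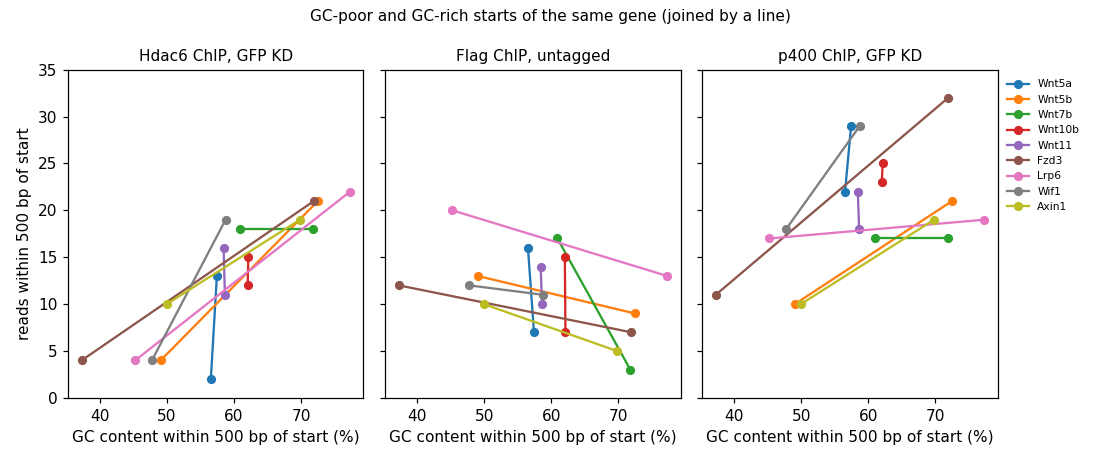
Reads within 500 bp of the TSS (vertical) against GC content of the same window (horizontal, %) for the GC-poor and GC-rich start of 9 Wnt genes with starts more than 1000 bp apart, a line joining the starts of a gene, in the Hdac6 and p400 ChIPs upon GFP KD and the untagged ChIP. Lines rise or stay level in 8 of 9 genes in the Hdac6 ChIP and fall in 9 of 9 in the untagged ChIP.

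Among the ligands, Hdac6 signal was highest at Wnt1, which patterns the midbrain, and at Wnt6. Wnt1 held 27 and 20 reads in the Hdac6 ChIP upon GFP KD and in the library titled Tip60 KD, against 17 in the untagged ChIP. The Hdac6 to untagged ratio of Wnt1 was 3.17 (interval 1.67 to 6.20, adjusted p = 0.00319 by the exact binomial test). Wnt6 held 24 and 15 Hdac6 reads and 18 untagged reads, a ratio of 2.66 (1.39 to 5.21, exact test, adjusted p = 0.0174). The untagged level of both was itself above the median. Wnt2b, with 19 and 14 Hdac6 reads against 12, had a ratio of 3.16 (1.46 to 7.15, exact test, adjusted p = 0.0174). After the GC correction the ratio was 1.055 at Wnt1, 0.89 at Wnt6 and 1.052 at Wnt2b. Wnt4, a ligand of kidney and gonad development, was lowest of the ligands in the 3 ChIPs together. It held only 3 Tip60 reads with either knockdown, 14 and 10 Hdac6 reads, 3 untagged reads and 8 and 9 p400 reads. The Wnt4 ratio of Hdac6 to untagged was 9.32 on so few reads that the interval ran from 2.60 to 50.6.

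Among the receptors, Fzd4 and the co-receptor gene Lrp5 stood highest over the control. Fzd4, the receptor of retinal vessel growth, held 19 and 17 Hdac6 reads and 5 untagged reads, a ratio of 7.59 (interval 2.74 to 26.0, exact test, adjusted p = 0.000314). Lrp5 held 18 and 13 against 5, a ratio of 7.19 (2.57 to 24.8, exact test, adjusted p = 0.000593). Fzd8 held 20 and 15 against 9 (ratio 4.44, exact test, adjusted p = 0.00237), and Fzd10 held 21 and 14 against 17 (ratio 2.47, exact test, adjusted p = 0.0409). Fzd7 held 16 and 21 Hdac6 reads but 24 in the untagged ChIP, and Lrp6 held 4 and 9 at its first row against 20. The untagged library was normalized to more reads than the Hdac6 one, and these counts correspond to ratios of 1.33 for Fzd7 (interval 0.66 to 2.61) and 0.40 for the first row of Lrp6. After the GC correction the Fzd4 ratio was 2.52, that of Lrp5 2.39 and that of Fzd10 0.82.

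Among the inhibitors, Sfrp1, Sfrp5, Frzb, Wif1 and Sfrp4, which bind Wnt ligands, were above the control by the exact test, and none of the 4 Dkk genes passed it. Sfrp1 held 20 and 12 Hdac6 reads against 5 untagged reads (ratio 7.99, interval 2.91 to 27.2, exact test, adjusted p = 0.00017). Sfrp5 held 20 and 13 against 7 (ratio 5.71, 2.32 to 16.0, exact test, adjusted p = 0.000767), and Frzb held 21 and 13 against 9 (ratio 4.66, exact test, adjusted p = 0.00137). Wif1 held 19 and 8 against 11 (ratio 3.45, exact test, adjusted p = 0.0115), and Sfrp4 16 and 14 against 11 (ratio 2.91, exact test, adjusted p = 0.0451). Sfrp2 held 16 and 21 Hdac6 reads beside a high untagged count of 19. Dkk1, the inhibitor of Lrp5 and Lrp6 on the primer list of the study, held 6 and 5 Hdac6 reads and 9 untagged reads. Dkk2 held 9 and 9 against 12, Dkk3 held 7 and 15 against 14, and Dkk4 held 10 and 5 against 12. Their ratios ran from 0.999 at Dkk3 to 1.67 at Dkk4. After the GC correction the Dkk ratios were 0.72 at Dkk1, 0.71 at Dkk2, 0.42 at Dkk3 and 1.43 at Dkk4. With it, Sfrp1 stood at 3.02, Frzb at 1.97, Sfrp5 at 1.90, Wif1 at 1.46, Sfrp4 at 1.23 and Sfrp2 at 0.56. The 4 Dkk genes have GC contents from 47.25% to 59.3%, below the median of the Wnt genes. Axin1 held 19 and 17 Hdac6 reads against 5 (ratio 7.59, interval 2.74 to 26.0, exact test, adjusted p = 0.000314) and Axin2 held 9 and 8 against 10.

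Tip60 ChIP signal at the Wnt genes was close to the untagged background. Of the 40 genes tested, 14 were at least 1.5-fold higher and 8 lower in the Tip60 ChIP upon GFP KD than in the untagged ChIP, and over all rows tested 29.8% were higher and 15.2% lower. By the exact binomial test 0 genes differed in either direction (4 higher and 4 lower at an unadjusted p under 0.05), against 1.25% higher and 0.07% lower over all rows. Summed Tip60 reads were 10.85% higher than the control (interval −2.19 to 25.6), beside 16.9% for all rows. The secreted inhibitors were 41.3% higher (9.32 to 83.1) but 10.2% higher in 1000 bp windows (−7.76 to 31.7), the ligands 1.58% (−15.3 to 21.8) and the receptors 0.66% (−22.5 to 30.7). The smallest p-values were those of Sfrp1, with 19 Tip60 and 5 untagged reads (ratio 4.12, interval 1.49 to 14.1, exact test, adjusted p = 0.134), and of Wnt9a and Fzd7, which were lower. Wnt9a held 3 Tip60 and 15 untagged reads, and Fzd7 8 and 24 (exact test, adjusted p = 0.254 and 0.264). None of these passes the adjusted threshold, and both directions occur. The untagged library is the same one that the Hdac6 comparison used.

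Upon Hdac6 KD, Tip60 signal at the Wnt genes was lower by about as much as, or somewhat more than, over all rows. This comparison shares the Tip60 GFP KD library with the one above. Of 39 genes tested, 16 were at least 1.5-fold lower and 6 higher, and over all rows tested 34.2% were lower and 15.1% higher. The exact binomial test called 0 in either direction (5 lower and 0 higher at an unadjusted p under 0.05), against 0.394% lower and 0.0508% higher over all rows. Summed reads differed by −22.8% (interval −32.75 to −11.4), against −15.2% for all rows, and the medians were −25.8% and −16.5%.

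The 3 smallest p-values were those of Wnt5b, Wnt10a and Sfrp1, which are among the genes with most Tip60 reads in the control library. A gene that is high in a single library by counting error tends to be lower in the next, so a lower value at such genes is no pattern in itself. Wnt5b, which acts in chondrocyte differentiation, held 31 Tip60 reads upon GFP KD, the most of the 41 genes, and 7 upon Hdac6 KD, a ratio of 0.25 (interval 0.09 to 0.58, exact test, adjusted p = 0.0677). Wnt10a, a ligand of tooth and skin development, held 24 and 4 reads, a ratio of 0.19 (0.05 to 0.54, exact test, adjusted p = 0.0734), and Sfrp1 held 19 and 5 (0.29, 0.09 to 0.81, exact test, adjusted p = 0.245). The untagged ChIP held 19, 13 and 5 reads at these genes, so the Hdac6 KD value of Wnt5b and Wnt10a lay below the untagged one and that of Sfrp1 was equal in reads. Among the other genes with 15 or more control reads, Wnt8a was higher upon Hdac6 KD and all the rest were lower. The same caution applies to them. Wnt8a held 17 and 22 Tip60 reads, Wnt8b held 17 and 14, and Wnt10b held 17 and 10. Wnt1 held 16 and 4 Tip60 reads, and Fzd10 held 20 and 6. Sfrp2 held 26 and 14, Sfrp4 held 24 and 18, Wif1 held 21 and 13, and Lrp5 held 15 and 8. The inhibitors Dkk1 (7 and 8 reads), Dkk2 (11 and 10) and Dkk4 (9 and 14), with Sfrp5 (6 and 9) and the first row of Axin1 (7 and 14), were not lower in reads by more than 1. The other start of Axin1 went the other way, with 18 and 6 reads (exact test, adjusted p = 0.394). The remaining genes named above held fewer than 15 control reads. There were 12 and 15 reads at Wnt2b, 5 and 8 at Wnt6, 12 and 8 at Wnt5a and 8 and 9 at Fzd4. Fzd5 held 13 and 6 reads, Fzd7 held 8 and 13, Fzd8 held 9 and 6, and Wnt9a held 3 and 1. In none of these did the exact test separate both libraries. Fzd3 held 11 and 8 reads at its first row, Lrp6 held 12 and 6, Dkk3 held 9 and 3, Frzb held 10 and 6, and Axin2 held 11 and 9. Divided by the ratio of flank windows of like GC content, the summed difference was −1.90% (interval −15.2 to 13.4). With that correction 9 of 39 genes tested were lower and 11 higher, beside 25.02% and 22.24% of all rows.

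Some Wnt genes are neighbors, and their Tip60 values need not be alike. The 41 genes include 4 pairs with starts within 50 kb, which are Wnt1 and Wnt10b (11.7 kb apart on chromosome 15), Wnt3 and Wnt9b (24.4 kb, chromosome 11), Wnt3a and Wnt9a (16.2 kb, chromosome 11) and Wnt6 and Wnt10a (19.6 kb, chromosome 1). Wnt10a held 24 and 4 Tip60 reads upon GFP KD and Hdac6 KD, whereas Wnt6 next to it held 5 and 8. In the other pairs the Tip60 reads were 16 and 4 at Wnt1 and 17 and 10 at Wnt10b, 6 and 7 at Wnt3 and 10 and 5 at Wnt9b, and 9 and 3 at Wnt3a and 3 and 1 at Wnt9a.

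p400 signal was lower upon Hdac6 KD at 36 of the 41 Wnt genes, with 10 of 10 receptors, 9 of 10 inhibitors, 15 of 19 ligands and both Axin genes among them. Over all rows tested, 16436 of 22079 were lower as well, so a ratio below 1 was the usual case. Of 41 genes tested, 19 were at least 1.5-fold lower and 0 higher, and over all rows tested 44.8% were lower and 8.19% higher. By the exact binomial test 4 fell and 0 rose (12 and 0 at an unadjusted p under 0.05), against 12.3% and 0.272% of all rows. The Wnt genes as a whole were therefore near the background, with a median of −28.8% against −29.0% for all rows and summed reads that differed by −33.3% (interval −39.4 to −26.6) against −31.2%.

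The sums by role were unequal. At the 19 ligands, summed p400 reads differed by −18.9% (interval −29.5 to −6.81), and 3 genes (Wnt1, Wnt2b and Wnt5a) were past 1.5-fold. At the 10 receptors the difference was −44.8% (−54.8 to −32.8), and 8 genes were past the fold, all but Fzd3 and Lrp5. At the 10 inhibitors it was −39.5% (−50.3 to −26.4) with 7 genes past the fold, all but Dkk1, Dkk3 and Sfrp5, and at the 2 Axin genes it was −59.7% (−75.6 to −34.8). The intervals of ligands and receptors do not overlap, but they cover counting error only, and a difference between roles was not tested. With the GC correction the ligands differed by −12.6% (−24.2 to 0.73), the receptors by −32.4% (−45.1 to −16.9) and the inhibitors by −38.8% (−49.8 to −25.6). The intervals of ligands and receptors then overlap. They also overlap in 260 bp windows, with −34.9 to −2.95 at ligands and −62.4 to −33.5 at receptors. In 1000 bp windows they do not, with −29.2 to −13.9 and −48.9 to −31.9. In flank windows 1500 to 2000 bp away the same receptors differed by −18.0% (−33.8 to 1.67), the ligands by −0.02% (−14.2 to 16.5) and the inhibitors by −1.18% (−20.7 to 23.4). In the Tip60 ChIP the sums upon Hdac6 KD were −27.3% at ligands, −25.1% at receptors and −21.6% at inhibitors. The Tip60 value of the receptors depended on the window, with −50.0% (interval −68.3 to −22.5) in 260 bp windows and −2.37% (−19.7 to 18.6) in 1000 bp windows. The plot of p400 signal by gene and the plot of summed reads by role show these values.

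**Figure D3:**
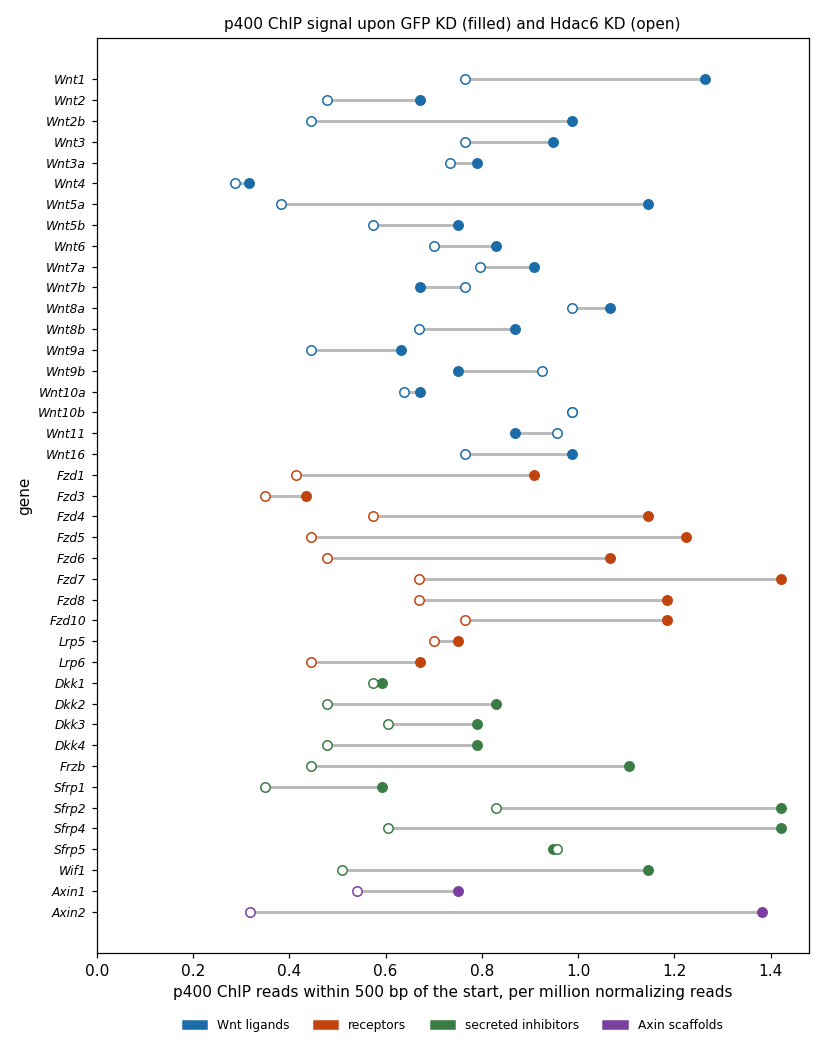
p400 ChIP rpm within 500 bp of the TSS (horizontal) for the 41 genes (vertical, by role), filled upon GFP KD and open upon Hdac6 KD, 1 library each. The open point lies left of the filled one in 36 genes, and the distance is widest at Axin2, from 1.38 to 0.32.

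**Figure D4:**
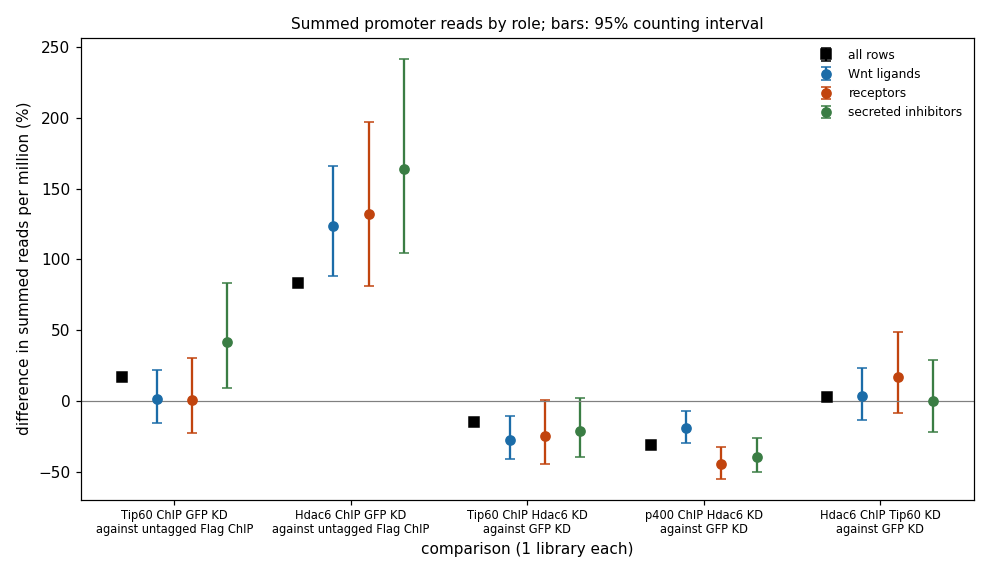
Difference in summed promoter rpm (vertical, %) in the 5 comparisons (horizontal) for all rows (black squares), ligands, receptors and inhibitors; bars are 95% counting intervals. In the p400 comparison the ligands stand at −18.9% and the receptors at −44.8%, either side of all rows at −31.2%.

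Axin2, the feedback target of the pathway, showed the largest fall of p400. Its TSS (chr11:108781680, plus strand, 17 bp inside the annotated transcript) held 35 p400 reads with the control knockdown and 10 upon Hdac6 KD. The difference was −76.95% (interval −89.82 to −52.45, exact test, adjusted p = 0.00073). Axin2 stood at percentile 87.2 for p400 upon GFP KD, so the caution given above on genes high in a single library applies to it. Upstream of the TSS, from −600 to −200 bp, the p400 reads were 9 and 2, and from −100 to 300 bp they were 19 and 7. In rpm, Axin2 stood at 1.38 and 0.32 for p400, 0.52 and 0.47 for Tip60, 0.78 and 0.87 for Hdac6 and 0.43 in the untagged ChIP. Levels of different antibodies are not compared, and the untagged Flag ChIP is no background for the p400 antibody. Axin1 held 19 and 17 p400 reads.

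p400 also fell at Wnt5a, Fzd5 and Sfrp4 by the exact test. Wnt5a, the ligand best known for signaling without β-catenin, held 29 p400 reads in the control and 12 upon Hdac6 KD (−66.6%, interval −84.5 to −32.6, exact test, adjusted p = 0.0181), and its other start, 5932 bp away, held 22 and 11. Fzd5 held 31 and 14 (−63.6%, −82.1 to −29.5, exact test, adjusted p = 0.022). Sfrp4 held 36 and 19 (−57.4%, −76.9 to −23.8, exact test, adjusted p = 0.0309). All 3 held more than the median of 23 reads upon GFP KD, as did Axin2. The same caution on genes high in a single library applies to them and to Axin2. The first rows of the other receptors were also lower in rpm without passing the adjusted threshold. Fzd7 held 36 and 21 reads, Fzd8 and Fzd10 held 30 upon GFP KD and 21 and 24 upon Hdac6 KD, Fzd4 held 29 and 18, and the first row of Lrp6 held 17 and 14. At Fzd3 and Lrp6 the value differed between the starts, with the larger difference at the GC-rich one. Fzd3 held 11 and 11 at its GC-poor first row but 32 and 15 at its GC-rich start, which passed (ratio 0.38, interval 0.19 to 0.72, exact test, adjusted p = 0.0238), and Lrp6 held 19 and 9 at its GC-rich start. Lrp5 held 19 and 22. Taking the GC-rich start of each gene gave −49.7% for the receptors (−58.7 to −39.0) and −23.7% for the ligands (−33.8 to −12.1), and without Fzd3 and Lrp6 the receptors stood at −46.9%. Both settings were chosen after seeing the data.

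Ligands other than Wnt5a, and inhibitors other than Sfrp4, did not pass the adjusted threshold for p400. Wnt1 held 32 and 24 p400 reads, Wnt2b held 25 and 14, and Wnt6 held 21 and 22. Wnt5b held 19 and 18, Wnt9a held 16 and 14 and Wnt10a held 17 and 20. The library upon Hdac6 KD is the deeper one, so equal reads in both are a lower rpm. Dkk1 held 15 and 18, Dkk2 21 and 15, Dkk3 20 and 19 and Dkk4 20 and 15. Among the Dkk genes, Dkk2 and Dkk4 were past the fold. Sfrp5 held 24 and 30 reads, Sfrp1 15 and 11, Sfrp2 36 and 26, Frzb 28 and 14 and Wif1 29 and 16. Frzb, Wif1, Sfrp1 and Sfrp2 were past the fold, and Dkk1 and Sfrp5 held more reads upon Hdac6 KD than upon GFP KD.

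Hdac6 coverage at most Wnt genes was higher downstream than upstream of the TSS. In the Hdac6 ChIP upon GFP KD, mean coverage from −100 to 300 bp was 33.0% above that from −600 to −200 bp (35.4% over all rows), and it was higher in 30 of 41 genes (73.2%, against 61.3% of all rows). By role it was 79.9% above at the receptors (higher in 10 of 10), 40.9% at the inhibitors (6 of 10) and 12.6% at the ligands (12 of 19). In the library titled Tip60 KD the order was another, with 95.4% at the inhibitors (8 of 10), 59.0% at the receptors (8 of 10) and 34.5% at the ligands (13 of 19), while the downstream window was the lower one at both Axin genes. In the p400 ChIP upon GFP KD both windows were nearly level at the Wnt genes, with 1.67% more downstream against 18.2% over all rows. Upon Hdac6 KD the p400 downstream window differed from the upstream one by −16.3% at the Wnt genes but was 10.8% higher over all rows, and it was the higher one in 13 of 41 genes (31.7%, against 58.0% of all rows). p400 reads differed between knockdowns by −28.1% upstream (interval −37.9 to −16.8) and −40.9% downstream (−49.4 to −31.1), where all rows gave −29.3% and −33.7%. Relative to the flanks, p400 promoter coverage was 1.46-fold upon GFP KD and 1.04-fold upon Hdac6 KD at the Wnt genes, and 1.64-fold and 1.16-fold over all rows.

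Mean Tip60 coverage at the Wnt genes upon Hdac6 KD had its lowest point 80 bp upstream of the TSS, at 0.093 ppm, and the untagged ChIP had its lowest point 40 bp upstream, at 0.12 ppm. Tip60 reads differed by −13.8% upstream (interval −29.6 to 5.52) and −27.6% downstream (−42.3 to −9.40), with −10.9% and −18.1% over all rows. The upstream interval includes no difference and the downstream interval does not. The plot of mean coverage shows a dip at the TSS for both libraries.

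**Figure D5:**
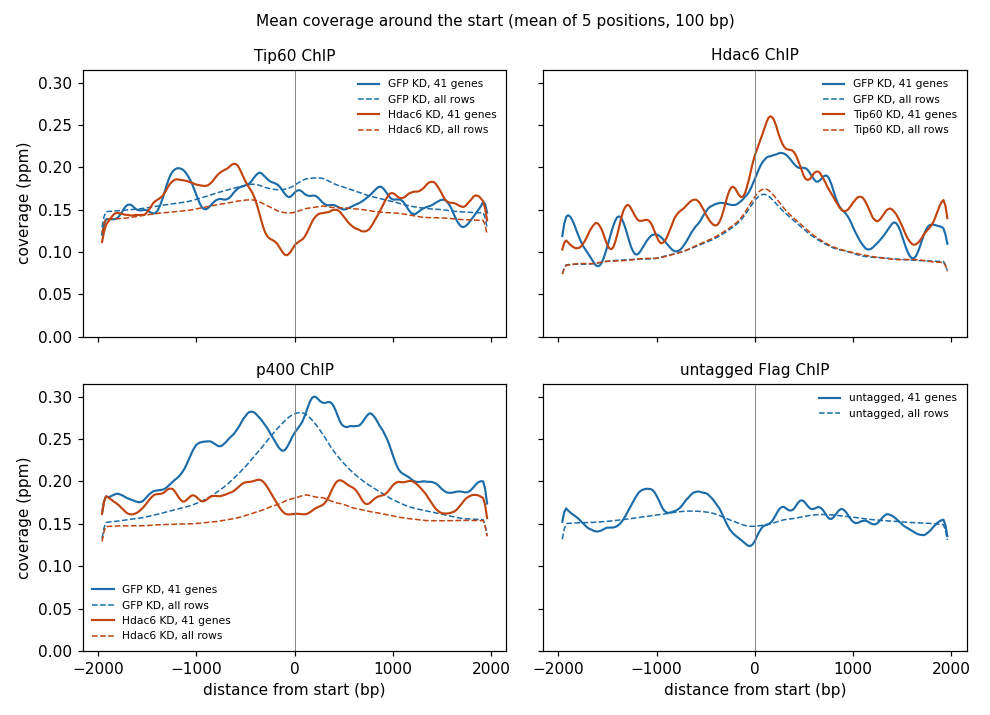
Mean coverage (vertical, ppm) by distance from the TSS (horizontal, bp) for the 41 genes (solid) and all rows (dashed), smoothed over 5 positions, in the Tip60, Hdac6, p400 and untagged ChIPs. Hdac6 coverage of the Wnt genes peaks downstream of the TSS, p400 coverage is lower upon Hdac6 KD across the promoter, and the untagged profile dips 40 bp upstream.

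No Wnt gene differed in Hdac6 signal between GFP KD and the library titled Tip60 KD by the exact test. Of 40 genes tested, 4 were at least 1.5-fold lower (Wnt7b, Fzd1, Dkk4 and Wif1) and 7 higher (Wnt3, Wnt10a, Fzd5, Fzd7, Lrp6, Dkk3 and Sfrp2), against 16.7% and 18.4% of all rows. The exact binomial test called 0 in either direction (0 lower and 3 higher at an unadjusted p under 0.05), against 0% and 0.00353% of all rows. Summed reads differed by 6.29% (interval −5.76 to 19.8), and by 2.48% over all rows. The largest differences were at Wnt10a, with 9 reads upon GFP KD and 19 in the library titled Tip60 KD, at Fzd5 (13 and 24 reads) and at Dkk3 (7 and 15), each with an adjusted p of 1 in the exact test. Among the other genes named above, Wnt5a held 13 and 9 reads with 7 untagged ones, Wnt5b held 9 and 9, and Wnt9a held 17 and 19 with 15 untagged ones. Fzd5 held 9 untagged reads. This comparison shares the Hdac6 GFP KD library with the one against the untagged ChIP.

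The Dkk1 promoter was assayed in the study by ChIP-qPCR, so its position and motifs are given. The designed primers, read from the study's primer list, match mm9 exactly around the Dkk1 TSS (chr19:30623986, minus strand), with the match to TATAAA in capitals.
Dkk1 forward primer: ggctgggagcctgagTATAAAg
Dkk1 reverse primer: aacaggcaaaggtcaggaaaag
The amplicon spans chr19:30623884-30624055 and begins 69 bp upstream of the TSS. In the ChIP-seq files, the window around it held 7 and 8 Tip60 reads upon GFP KD and Hdac6 KD, 9 untagged reads and 15 and 18 p400 reads, with no library standing out. From 250 bp before to 50 bp after the TSS, motifs were searched on both strands. TATAAA was found in 5 of 41 Wnt genes (12.2%, with 12.8% of all rows), namely Fzd3, Lrp6, Dkk1, Dkk2 and Dkk4. CTTTGAA or CTTTGAT, which share all but the last letter and that TCF/LEF factors are known to bind, were found in 5 of 41 (12.2%, with 8.19% of all rows), at Wnt5b, Wnt8a, Dkk1, Dkk3 and Dkk4. Dkk1 has TATAAA 54 bp upstream of the files' TSS and CTTTGAA farther upstream. That TSS lies inside the annotated exon, and both matches lie downstream of the annotated start of the transcript. A match is a description of letters and not of a bound site.

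Other genes of the pathway were taken from a list of 59, of which 50 matched a symbol and the rest were not analysed here. They comprise 18 regulators of secretion and receptors, 10 cytoplasmic transducers, 12 nuclear factors and 10 targets. In the p400 comparison 19 of 50 were at least 1.5-fold lower and 5 higher, beside 44.8% and 8.19% of all rows, and the exact binomial test called 2 lower and 0 higher. These 2 were the kinase gene Gsk3b (43 reads in the control and 16 upon Hdac6 KD, ratio 0.30, exact test, adjusted p = 0.00105) and Ctnnb1, which encodes β-catenin (27 and 13, ratio 0.39, exact test, adjusted p = 0.0485). At the targets 6 of 10 were past the fold (T, Myc, Ccnd1, Id2, Cdx4 and Msx1) and at the transducers 3 of 10. The 5 genes at least 1.5-fold higher were Notum (13 and 35 reads), Btrc (7 and 15), Bcl9 (12 and 25), Kremen2 (12 and 24) and Sost (17 and 32), and none of them passed the exact test. In the Tip60 comparison 16 of 50 were lower and 9 higher, beside 34.2% and 15.1% of all rows. Against the untagged ChIP, 43 of 49 were higher and 1 lower for Hdac6, beside 58.6% and 11% of all rows, and the trend with GC content given above was not corrected for here. For Tip60, 17 of 50 were higher and 9 lower, beside 29.8% and 15.2% of all rows. In the library titled Tip60 KD, 3 of 48 were lower and 16 higher for Hdac6, beside 16.7% and 18.4% of all rows.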

How the data were processed

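ChIP-seq of 7 libraries, 1 per condition, was analysed from the coverage signal around each TSS that the authors computed and deposited, normalized to ppm at 201 positions per row spaced by 20 bp. By the study's methods, reads were mapped to mm9 with bowtie (version not given in the sources used here) with at most 1 mismatch and extended by 150 bp, and the submitters' processing notes also name CASAVA 1.8.2. The deposited values measure spans close to 298.9 bp in all but the Hdac6 libraries. How the TSS list was made and what the normalization counted are not given in the sources used here. The p400 files hold 22704 of the 36733 rows, joined by RefSeq identifier and file order.

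Reads were recovered as whole multiples of the smallest signal step (tolerance 0.02 steps) with Python 3.11.15, numpy 2.4.6 and scipy 1.17.1, and summed within 500 bp of the TSS. Pairs of libraries were compared by rpm ratio, by the exact conditional binomial test and by summed reads. Scripts were tested on simulated data. GC content came from the mm9 genome. No test between conditions was possible with 1 library each. The members and gene lists were chosen with earlier results of these data known. Named with all values are the genes on the study's primer lists, Axin1, Axin2, Lrp5, Lrp6, Frzb, Wif1, the 3 highest and the lowest gene of each family by summed rpm of the 3 control ChIPs, and in each comparison up to 5 with adjusted p below 0.05, or else the 3 with the smallest p. Alternatives were windows of 260 and 1000 bp, scaling to flank reads, all rows of each gene, a GC correction and a fold of 2. The read minimum was also set to 20 in both libraries together, or to 1 in each library. The start with the highest GC content and a set without Fzd3 and Lrp6 were added after seeing the data.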

Additional observations from a re-analysis of the deposited data

How the results depend on the processing

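Of the alternative values of the counts and sums, 86 stayed close to the value given, 33 moved and 1 reversed. The GC correction reversed the summed Hdac6 difference from the untagged control, from 138.9% to −3.34%. With it 11 of 41 genes were lower and 10 higher, beside 24.03% and 20.78% of all rows. The correction moved Tip60 upon Hdac6 KD to −1.90%, with 9 lower and 11 higher of 39, beside 25.02% and 22.24%. It moved p400 to −26.25%, with 16 lower and 1 higher of 41, beside 40.12% and 8.366%. The summed Hdac6 difference was 171.1% in 260 bp windows, 104.4% in 1000 bp windows and 103.8% scaled to flank reads. At the start with the highest GC content it was 177.8%. In 260 bp windows 1 of 34 genes tested was lower for Hdac6, beside 8.65% of all rows. At the start with the highest GC content 0 of 41 were lower, beside 11.01%. Over all rows of each gene, 5 of 53 rows were lower, beside 11.01%. Counts with a fold of 2 follow, with shares of all rows in brackets. For Tip60 against untagged 4 were lower and 7 higher of 40 (6.465% and 14.32%). For Hdac6 against untagged 1 of 41 was lower (6.391%), and for p400 10 of 41 (21.79%). For Tip60 upon Hdac6 KD 8 were lower and 1 higher of 39 (19.34% and 6.978%). For Hdac6 in the library titled Tip60 KD 1 was lower and 4 higher of 40 (6.295% and 6.355%). For Tip60 upon Hdac6 KD the 260 bp window gave 8 lower and 2 higher of 21 tested, beside 36.8% and 19.7% of all rows. The 1000 bp window gave 8 lower of 41, beside 26.5%, and a sum of −11.4%. A minimum of 20 reads gave 9 lower and 3 higher of 22 tested, beside 31.7% and 13.6%. That minimum gave 1 lower of 34 for Hdac6 against untagged, beside 5.58%. The 1000 bp window gave 9 higher of 41 for Tip60 against untagged, beside 19.8% of all rows. It gave 1 lower of 41 for Hdac6 in the library titled Tip60 KD, beside 13.2%. p400 had 1 gene higher of 41 in the 260 bp window, beside 9.58%. Over all rows of each gene it had 1 row higher of 53, beside 8.19%. For most of these the cause was not tested; fewer genes can pass a fold of 2 or a higher read minimum by construction. No alternative could leave out a replicate, and no paired analysis was possible because each condition has 1 library. Depth limits every single gene: with a median of 8 to 21 reads per row, 4 of the 19 Wnt genes past 1.5-fold for p400 passed the exact test.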
